A study of Mus musculus with 4 samples.

Results

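Gas1, Boc and Cdon encode the cell-surface co-receptors for Hedgehog ligands. They were taken as the rows of the deposited count table whose gene name equals a member, which gave 3 of 24907 genes, and each had enough counts to be tested. All 3 transcripts were lower in basal cell carcinoma cells with a c-FOS vector than in cells with an empty vector, and by unequal amounts. Gas1 fell to 12.6% of its control level, Boc to 62.7% and Cdon to 76.0%.

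Hedgehog ligands signal by binding the receptor Ptch1, which otherwise holds the membrane protein Smoothened (Smo) inactive. Active Smo leads to activation of GLI transcription factors, of which Gli1 is also a target of the pathway. GAS1, attached to the membrane by a lipid anchor, and BOC and CDON, related transmembrane proteins with immunoglobulin and fibronectin domains, bind the ligand beside Ptch1 and promote signalling, with partly overlapping roles. Basal cell carcinoma is a skin tumour driven by activation of this pathway.

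RNA-seq libraries came from ASZ001, a mouse basal cell carcinoma cell line. Cells of the genotype control (2 libraries) held an empty doxycycline-inducible vector, and cells of the genotype c-FOS (2 libraries) a vector with c-FOS. Both kinds were treated with doxycycline (Dox). The question of the series is how basal cell carcinoma cells turn squamous. c-FOS vector cells without doxycycline were not analysed here, so induction of c-FOS and other differences between the kinds of cell cannot be told apart. Whether the 2 libraries of a group came from separate cultures is not stated in the labels. The p-values therefore rest on the spread of these libraries alone, and that spread may be technical.

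The deposited counts summed to between 28405433 and 32465409 per library. Fos, the gene carried by the vector, was at 0.404 and 0.351 counts-per-million (CPM) units in the control libraries and at 296.8 and 313.4 CPM in the c-FOS libraries. The basal keratinocyte keratins Krt5 and Krt14 were abundant in both groups, with Krt14 at 6980 CPM or more in control and 4798 CPM or more in c-FOS libraries. Both were lower in c-FOS libraries, Krt5 at 33.0% and Krt14 at 69.3% of the control level. The quasi-likelihood test of edgeR, at a Benjamini-Hochberg adjusted p of 0.05, called 67.1% of the 12791 genes tested, 33.3% as lower and 33.8% as higher, so a call is the usual state of a gene in this comparison. In bulk RNA, fewer cells of a type and less RNA per cell cannot be told apart.

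The bases upstream of the annotated start are shown for the 2 of 3 co-receptors matched in the RefSeq promoter table of build GRCm38.p6, because the genes fell together but by unlike amounts. The Gas1 stretch is chr13:60177536-60177785 on the minus strand, and the Cdon stretch is chr9:35451826-35452075 on the plus strand. Each holds the 250 bases before the start, written 5′ to 3′. Capitals mark a CCAAT box, a common promoter element.
Gas1: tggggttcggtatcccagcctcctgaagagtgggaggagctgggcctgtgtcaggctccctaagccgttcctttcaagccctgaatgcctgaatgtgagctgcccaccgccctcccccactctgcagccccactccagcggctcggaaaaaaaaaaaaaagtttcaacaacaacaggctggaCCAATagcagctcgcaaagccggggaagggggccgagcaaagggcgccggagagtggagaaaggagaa
Cdon: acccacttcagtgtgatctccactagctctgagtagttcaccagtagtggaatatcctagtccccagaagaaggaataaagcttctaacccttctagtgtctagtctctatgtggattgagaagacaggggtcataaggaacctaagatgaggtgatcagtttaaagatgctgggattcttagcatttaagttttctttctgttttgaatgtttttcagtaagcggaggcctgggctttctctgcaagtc

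The Gas1 stretch had a GC content of 58.8% and 10 CpG dinucleotides, against medians of 52.4% and 6 over 32851 promoter stretches of the same length. The Cdon stretch had a GC content of 42.8% and 1 CpG. Both strands of each stretch were searched for the AP-1 motif TGANTCA, the cAMP-response motif TGACGTCA, the GLI motif GACCACCCA and the letters CCAAT. The last was found in the Gas1 stretch, 68 bases before the start, and it occurs in 33.8% of all stretches. The other 3 motifs occur in 6.75%, 1.55% and 0.225% of all stretches, and neither the Gas1 nor the Cdon stretch held any of them. No match says only that these letters are not in this window. The Cdon start in that table is the start of the GENCODE transcript Cdon-201. It lies inside the gene, where 4 other transcripts begin 28488 to 30948 bases further upstream and Cdon-203 begins 5402 bases downstream. The Gas1 start lies 170 bases upstream of that of the GENCODE transcript Gas1-201.

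Gas1, named as a growth arrest-specific gene and the lipid-anchored member of the group, changed most of the 3. It had 284.8 and 261.5 CPM in the control libraries and 36.2 and 32.7 CPM in the c-FOS libraries. Both c-FOS libraries were far below both control libraries. The group means were 273.2 ± 16.5 CPM and 34.4 ± 2.42 CPM (SD, n = 2 per group), a 7.93-fold lower level. Its log2 fold change was -2.99 ± 0.06 (SE), and the adjusted p was 2.27e-14 (quasi-likelihood test of edgeR). Of the 12791 tested genes, 55 including Gas1 (0.43%) had a log2 fold change at or below this value. In GENCODE, the long non-coding gene Gm48488 overlaps Gas1 on the other strand. The sources used here do not give the strand setting of the counting, so reads from the 2 genes cannot be told apart.

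Boc, a transmembrane co-receptor closely related to CDON, was the least abundant. It had 42.3 and 40.9 CPM in the control libraries and 26.0 and 26.2 CPM in the c-FOS libraries. The groups did not overlap, and the 2 c-FOS libraries were nearly equal. The means were 41.6 ± 0.974 CPM and 26.1 ± 0.172 CPM (SD, n = 2 per group), and the log2 fold change was -0.67 ± 0.06 (SE; adjusted p = 2.42e-07 in the same edgeR test). A log2 fold change this low or lower was found in 12.6% of tested genes. In GENCODE, the microRNA gene Mir3081 overlaps Boc on the same strand.

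Cdon, the relative of Boc whose protein also takes part in cadherin-based muscle differentiation, changed least of the 3. It had 173.6 and 179.4 CPM in the control libraries and 137.5 and 130.7 CPM in the c-FOS libraries. Both c-FOS libraries were below both control libraries. The means were 176.5 ± 4.16 CPM and 134.1 ± 4.82 CPM (SD, n = 2 per group), and the log2 fold change was -0.40 ± 0.04 (SE; adjusted p = 1.12e-06 in the same edgeR test). A value this low or lower was found in 21.2% of tested genes. In GENCODE, the small nuclear RNA gene Gm25630 overlaps Cdon on the same strand and the ribosomal RNA gene Gm24188 on the other.

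All 3 co-receptors thus passed the test as lower, where 33.3% of all tested genes did, and the groups did not overlap for any of them, where 83.6% of tested genes had no overlap and 42.2% were lower without overlap. The calls do not set the 3 apart. By the size of the fold change, Boc and Cdon lay within a common range of this comparison, and Gas1 lay near its lower end. The basal keratinocyte markers moved with the co-receptors. Of 11 such markers tested, 9 fell, Itga6 rose and Epcam did not pass (it passed as lower with library totals, adjusted p = 0.00356). Their summed level was 32993 to 33363 CPM in control and 16495 to 17025 CPM in c-FOS libraries. Their part in the co-receptor result was not tested.

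**Figure D1:**
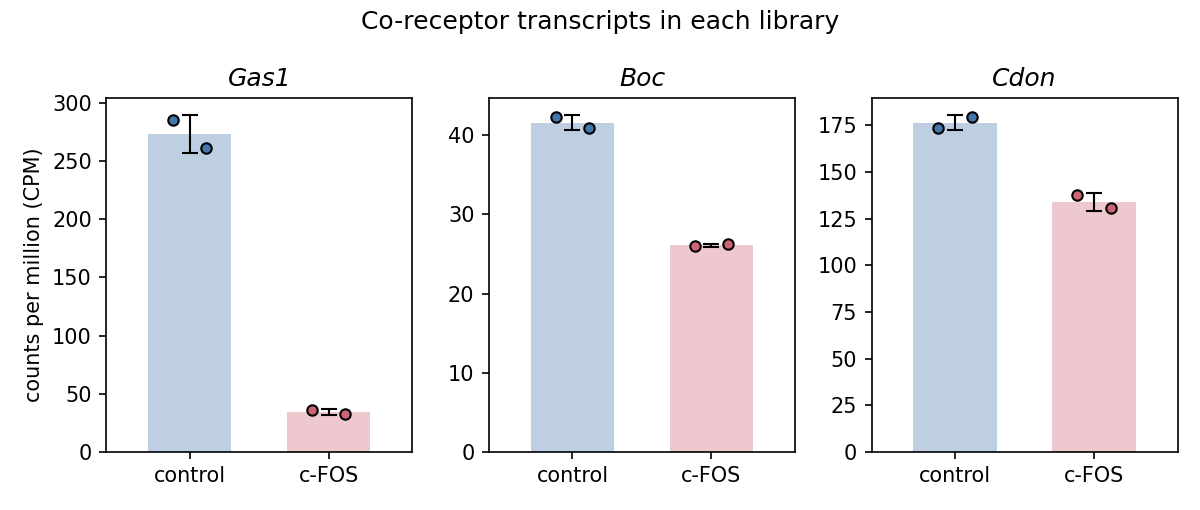
CPM of Gas1, Boc and Cdon in each library (points), with the group mean (bar) and SD (error bar, n = 2), each panel on its own axis from 0. Every c-FOS point lies below every control point, and the Gas1 mean goes from 273.2 to 34.4 CPM.

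**Figure D2:**
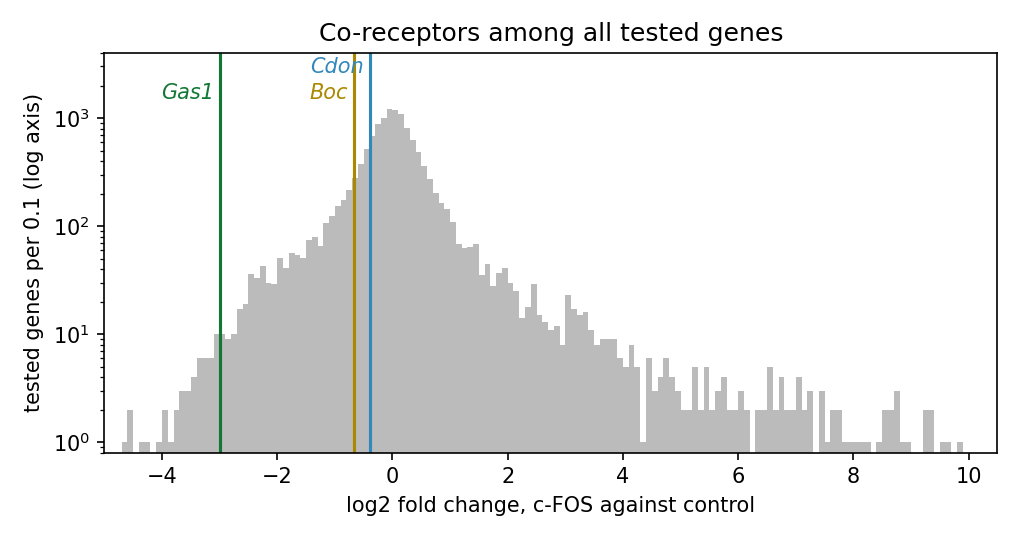
Number of tested genes (log axis) by log2 fold change of c-FOS against control in bins of 0.1, with vertical lines at the co-receptors. Gas1 at -2.99 lies in the lower tail, and Boc at -0.67 and Cdon at -0.40 lie in the flank of the main body.

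Levels of different genes were compared per kilobase of the deposited gene model (RPKM), which is 3128 bases for Gas1, 4407 for Boc and 7193 for Cdon. In control cells Gas1 was highest at 87.3 ± 5.26 RPKM, followed by Cdon at 24.5 ± 0.578 RPKM and Boc at 9.44 ± 0.221 RPKM (SD, n = 2). In c-FOS cells Cdon was highest at 18.6 ± 0.67 RPKM, followed by Gas1 at 11.01 ± 0.774 RPKM and Boc at 5.92 ± 0.039 RPKM (SD, n = 2). Neighbours in either order differed by more than the spread between libraries, and Gas1 and Cdon changed places.

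The 3 genes together summed to 124.8 and 117.8 RPKM in the control libraries and to 36.6 and 34.6 RPKM in the c-FOS libraries. Gas1 made up 73.0% and 71.0% of that sum in the control libraries and 31.6% and 30.3% in the c-FOS libraries. The share of Cdon was 19.3% and 21.2% in control and 52.3% and 52.5% in c-FOS libraries. The share of Boc was 7.69% and 7.88% in control and 16.1% and 17.2% in c-FOS libraries. Of the summed RPKM difference between the groups, Gas1 accounted for 89.0%, Cdon for 6.88% and Boc for 4.1%.

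**Figure D3:**
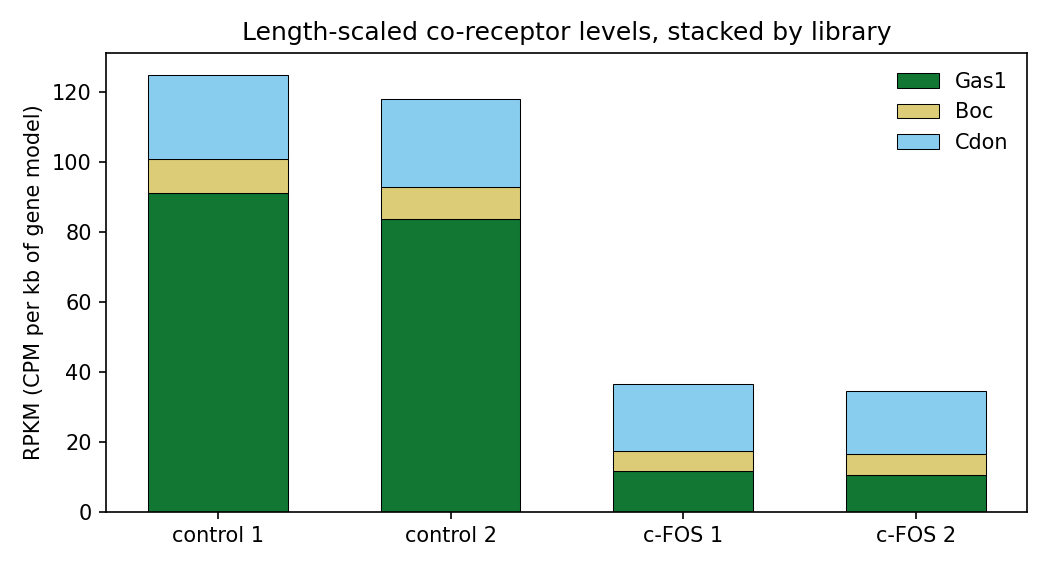
RPKM of Gas1, Boc and Cdon stacked for each of the 4 libraries. The control columns reach 124.8 and 117.8 RPKM with Gas1 as the main part, and the c-FOS columns reach 36.6 and 34.6 RPKM with Cdon as the main part.

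A ratio of 2 genes within a library does not depend on scaling between libraries. Per kilobase, the ratio of Gas1 to Boc was 9.49 and 9.004 in the control libraries and 1.96 and 1.76 in the c-FOS libraries. The ratio of Gas1 to Cdon was 3.77 and 3.35 in control and 0.605 and 0.576 in c-FOS libraries. The 2 transmembrane members kept closer together: Boc to Cdon was 0.398 and 0.372 in control and 0.308 and 0.328 in c-FOS libraries. On the log2 scale the differences of these ratios, c-FOS minus control, were -2.32, -2.59 and -0.28. The difference between the fitted log2 fold changes was -2.32 ± 0.08 (SE) for Gas1 and Boc, -2.59 ± 0.07 for Gas1 and Cdon, and -0.27 ± 0.07 for Boc and Cdon. Here and below, the SE of such a difference takes the 2 genes as independent, though both were measured in the same libraries. The exact permutation test over libraries, two-sided, gave p = 0.333 for each of 6 ratios compared, which is the smallest p that 2 against 2 libraries allow and so cannot pass 0.05, adjusted or not.

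Ligand transcripts were scarce in both groups. Shh, Ihh and Dhh, which encode the 3 mammalian ligands, were at most at 0.168 CPM in any library, and were too low to test. A floor of 3 counts corresponds to 0.0958 to 0.108 CPM per library, counting error only. Of 10 genes for ligands and their release, 2 were tested and both were lower, where 33.3% of all tested genes were. Scube3 passed the count filter through the control libraries alone, so once tested it could not come out higher. Hhat, the acyltransferase that attaches a fatty acid to the ligand, fell by 0.23 on the log2 scale (adjusted p = 0.0252). This call was lost under DESeq2 (adjusted p = 0.165) and when c-FOS replicate 1 (adjusted p = 0.127) or c-FOS replicate 2 (adjusted p = 0.117) was left out, and held in its other alternatives. Scube3, of a family of secreted proteins of which a member helps to release the ligand, was at 0.975 and 1.47 CPM in control and 0.126 and 0.21 CPM in c-FOS libraries, a log2 fold change of -2.69 ± 0.40 (SE).

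Ptch1, the ligand receptor and a pathway target, was at 16.7 and 17.1 CPM in the control libraries and 13.1 and 13.2 CPM in the c-FOS libraries. It fell by 0.36 ± 0.08 (SE) on the log2 scale, a step close in size to that of Cdon. Smo, the signal transducer that Ptch1 restrains, fell by 0.38 on the log2 scale, from 199.3 ± 2.44 CPM in control to 152.7 ± 1.15 CPM (SD, n = 2). The decoy receptor gene Hhip had 0 counts in all 4 libraries, which allows up to 0.108 CPM in a library. Relative to Ptch1, Gas1 went from 39.7 and 35.7 to 6.45 and 5.78 per kilobase. Relative to Smo, it went from 1.80 and 1.68 to 0.298 and 0.273. The fitted log2 fold change of Gas1 was thus below that of both core receptors, with differences of -2.63 ± 0.10 (SE) to Ptch1 and -2.61 ± 0.07 to Smo.

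Glypicans, cell-surface proteoglycans of which several bind Hedgehog ligands, went both ways. Gpc1 rose from 654.5 ± 23.3 CPM in control to 2617 ± 77.8 CPM (SD, n = 2), and Gpc6 rose by 0.53 on the log2 scale. Gpc4 fell by 0.99, and Gpc3, a negative regulator of Hedgehog signalling, fell by 1.45. Gpc2 had a log2 fold change of 0.14 and did not pass. Over receptors, decoy and surface binders, 2 of 7 tested genes rose, 4 fell and Gpc2 missed the threshold. Over all tested genes, 33.8% rose and 33.3% fell. The median log2 fold change of the 7 genes was -0.36, against -0.01 over all tested genes.

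Behind Smo, Gli1, the activator that the pathway itself induces, was at 15.1 and 15.03 CPM in control and 2.34 and 2.03 CPM in c-FOS libraries (-2.79 ± 0.12, SE). Its level was thus lower in both c-FOS libraries than in both control libraries, as that of Gas1 was. The ratio of Gas1 to Gli1 per kilobase was 22.0 and 20.3 in the control libraries and 18.0 and 18.8 in the c-FOS libraries. The fitted log2 fold changes of Gas1 and Gli1 differed by -0.20 ± 0.13 (SE, with the genes taken as independent), which is under 2 SE. The exact permutation p was 0.333, and this does not show that the genes changed alike. Gli2, the main activator upstream of Gli1, fell by 0.97, and Sufu, an inhibitor of GLI factors, fell by 0.57. Gli3, mostly a repressor, rose by 0.27 on the log2 scale.

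Of the 22 tested transducers, 9 rose, 7 fell and 6 missed the threshold, where 33.8% of all tested genes rose and 33.3% fell. Their median log2 fold change was 0.05, against -0.01 over all tested genes. The other genes with the highest and lowest values were Arrb1, a beta-arrestin (3.16, from at most 0.24 CPM in control), Spop, an adaptor that targets GLI proteins for degradation (0.44), Stk36, a kinase of the fused family (0.43), and Ulk3, a kinase that acts on GLI proteins (-0.65). Arrb1 passed the count filter through the c-FOS libraries alone, so once tested it could not come out lower. Of 13 tested target genes, 8 fell, 4 rose and 1 missed the threshold, to be read beside the same all-gene shares. Their median was -0.36, which is the value of Ptch1. Ptch1 also counts among the receptors and sets their median too, and Gli1 also counts among the transducers, so the tallies are not independent. Besides Gli1, the transcription factor genes Nkx2-1 (-2.25) and Foxl1 (-2.05) fell most, while the growth factor gene Bmp4 (1.603) and the cell-cycle genes Ccnd1 (1.47) and Cdk6 (0.51) rose. Receptors, transducers and targets each held genes that rose and genes that fell.

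**Figure D4:**
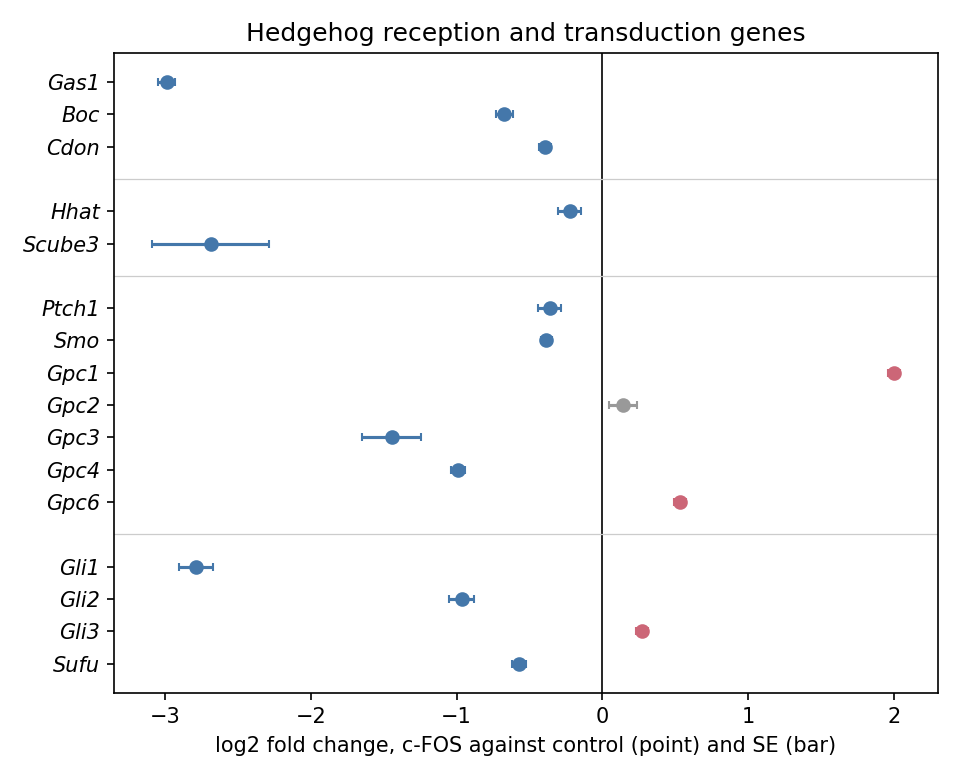
Fitted log2 fold change of c-FOS against control (point) and its SE (bar) for co-receptors, ligand processing genes, receptors and glypicans, and GLI factors with Sufu, from top to bottom. Blue points fell, red points rose and the grey point did not pass an adjusted p of 0.05. Gas1 and Gli1 stand at -2.99 and -2.79, and Gpc1 is the point farthest to the right.

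**Figure D5:**
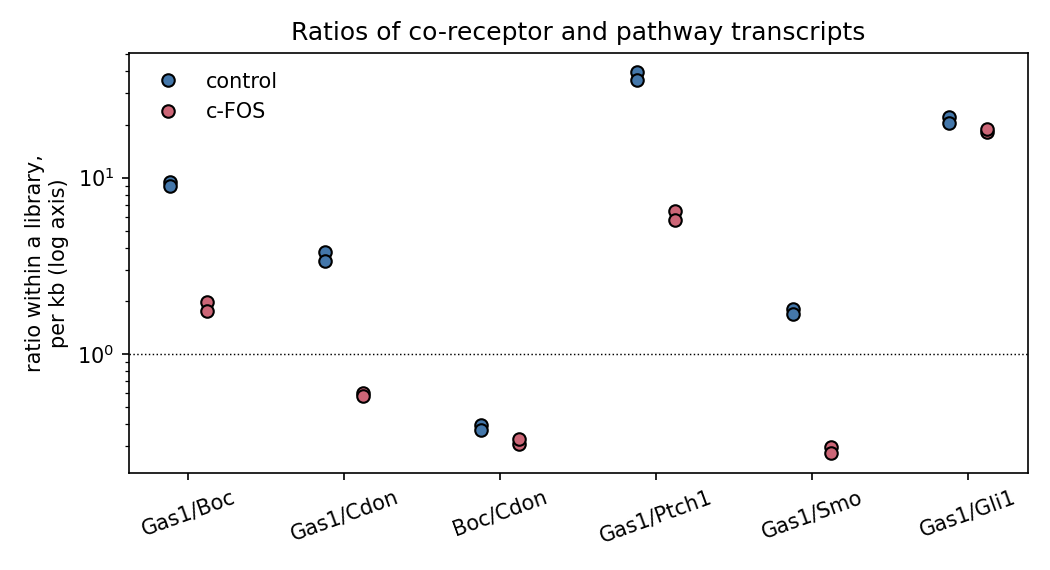
Ratio of transcripts per kilobase within each library on a log axis, for pairs of co-receptors and for Gas1 against Ptch1, Smo and Gli1. The Gas1 to Cdon and Gas1 to Smo points cross from above 1 in control to below 1 in c-FOS libraries, and the Gas1 to Gli1 points lie between 18.0 and 22.0 in all 4 libraries.

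No tested relative of Boc and Cdon passed as lower at the settings of the test used here, where 33.3% of all tested genes did. With 4 genes tested, this does not set the relatives apart. Among relatives of Boc and Cdon with immunoglobulin and fibronectin domains, 4 of 9 were tested, and Neo1, a receptor for netrins and repulsive guidance molecules, rose by 0.27 on the log2 scale, from 104.3 ± 0.518 CPM in control to 125.6 ± 1.97 CPM (SD, n = 2). The values of Prtg (0.60), Robo1 (-0.08) and Robo2 (-0.12) did not pass. Robo1 passed as lower with library totals (-0.21, adjusted p = 0.000982) and with upper-quartile factors (-0.14, adjusted p = 0.0166). Robo2 passed as lower without control replicate 1 (-0.30, adjusted p = 0.00928) and was at 0.10 without control replicate 2 and 0.02 without c-FOS replicate 2, neither past the threshold.

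GAS1 is related to the GDNF family receptors, which bind glial cell line-derived neurotrophic factor (GDNF) and its kin and act through the kinase Ret. Gfra1, the receptor for GDNF itself, was at 0.168 and 0.287 CPM in control and 2.5 and 3.36 CPM in c-FOS libraries (3.66 ± 0.32, SE), opposite to Gas1. Gfra1 passed the count filter through the c-FOS libraries alone, so once tested it could not come out lower. Gdnf rose from 29.9 ± 2.86 CPM in control to 124.8 ± 0.967 CPM (SD, n = 2), and Artn, another ligand of the family, rose by 0.74 on the log2 scale. The ligand gene Nrtn fell by 1.03. Gfra2 had a log2 fold change of -0.35 and did not pass (adjusted p = 0.0646), but passed with library totals (adjusted p = 0.0136), upper-quartile factors (adjusted p = 0.0322), no filter (adjusted p = 0.042) and without control replicate 1 (adjusted p = 0.0125). Ret was at most at 0.0168 CPM in any library, under the floor of 3 counts.

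The genes closest to each co-receptor in pattern were taken by the Euclidean distance of log2 CPM centred per gene over the 4 libraries. With 2 groups this measure finds mostly genes of like fold change. For Gas1 they were Gm12695 (distance 0.060), Ptprz1, which encodes a receptor phosphatase (0.14), and the basal-cell keratin gene Krt15 (0.15). Gm12695 was at 0.108 and 0.0807 CPM in the c-FOS libraries, at or near the floor of 3 counts. It passed the count filter through the control libraries alone, so once tested it could not come out higher. Its fitted log2 fold change was -3.54 ± 0.41 (SE), against -2.99 for Gas1, so its small distance does not mean an equal fold change. For Boc they were the ephrin gene Efnb1 (0.011), the laminin gene Lama3 (0.014) and Lrrc1 (0.017). For Cdon they were Wbp11 (0.012), the respiratory chain gene Ndufv2 (0.015) and Coa7 (0.018). The log2 fold change of Coa7 (-0.39) missed the threshold under DESeq2 (adjusted p = 0.0966) and when c-FOS replicate 2 was left out (adjusted p = 0.0699), and passed in the other alternatives run.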

How the data were processed

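RNA-seq of 4 ASZ001 libraries was used. Per the labels' protocols, total RNA was column-purified and libraries were made with a TruSeq RNA kit. According to the series design text and the submitters' processing notes, TopHat, HOMER and DESeq2 were used with build mm9. The sources used here do not give versions, annotation or strand setting. The authors deposited unnormalized expected counts in steps of 0.5 per gene symbol and library, beside a gene model length. 

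Counts were rounded to whole numbers. In edgeR 4.0.16 under R 4.3.3, genes were filtered with filterByExpr (by group, minimum count 10, total 15), libraries scaled with TMM factors and c-FOS compared with control by the quasi-likelihood test (two-sided, no covariates). Benjamini-Hochberg adjustment ran over 12791 genes at 0.05. CPM uses effective library sizes, and RPKM is CPM per kilobase. SD is over n = 2, and SE comes from the F statistic, with 2 residual degrees of freedom moderated over genes. TMM factors were 1.05 in both control libraries and 0.953 and 0.954 in the c-FOS libraries. Of 2 symbols on duplicate rows, the row with more counts was kept. Replicates differed by more than sampling noise (chi-square per degree of freedom 4.93 in control, 1.96 in c-FOS). On simulated counts for this comparison (12647 genes tested), 74% of changes by 1.25-fold were recovered, 92% of those by 1.5-fold, 98% by 2-fold and 100% by 4-fold. There were 9 false calls. The simulation changed only a small set of genes above a minimum level, with the spread fitted from these same libraries. In the data 67.1% of tested genes were called, so recovery there may differ.

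The members, lists and tests were chosen with earlier results of these data known, and the promoter motifs after the sequences were seen. In full were named the 3 co-receptors. From lists of at most 8 tested genes any could be named, and from longer lists the 3 highest and 3 lowest past the threshold and the core Hedgehog genes. For each co-receptor the 3 tested genes nearest in centred log2 CPM (prior count 2) were named. Alternatives were RLE, upper-quartile or no factors, other filters, DESeq2 1.42.0, limma-voom (limma 3.58.1), rounding down, a replicate block, and leaving out each library. One planned ratio is not reported here.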

Additional observations from a re-analysis of the deposited data

How the results depend on the processing

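Gas1, Boc and Cdon stayed lower and past the threshold in all 13 alternatives, and the 6 ratios kept their direction and size within the spread between libraries. The log2 fold change of Gas1 ranged from -3.13 with library totals to -2.91 without c-FOS replicate 2, that of Boc from -0.81 with library totals to -0.65 without control replicate 1, and that of Cdon from -0.53 with library totals to -0.36 without c-FOS replicate 2. The largest adjusted p was 5.2e-13 for Gas1 in limma-voom, and 3.66e-06 for Boc and 0.000114 for Cdon without c-FOS replicate 2. The number of genes past the threshold lay between 7176 in DESeq2 and 9096 with library totals, against 8589. Library totals moved the median log2 fold change of all tested genes to -0.14 and the share of higher calls from 50.3% to 35.4%. Without division by length, and with the replicate block, the ratio differences are the same by construction. Leaving out a library cannot move them beyond the spread used here, whatever the values. Only rounding down could thus have shown a change in their size.

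The labels number the libraries 1 and 2 in both groups. With the replicate block, the values were -2.99, -0.67 and -0.40 for Gas1, Boc and Cdon and 8464 genes passed. The deviations of same-numbered libraries correlated at -0.069 over genes, so nothing in the data or labels pairs them. With 2 libraries a group, a library left out leaves its group with a single sample, which is assumed to vary like the other group. Both the exact test and the spread are limited by that number rather than by depth, since the lowest count of a co-receptor was 723.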

Other observations

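Gas1 was first described among growth arrest-specific genes, transcripts that accumulate in cells that stop dividing. Beside it, 8 tested genes were listed, those with a Gas symbol, Gas2l1 and Gas2l3 included, and Ddit3, which has none. The list thus goes mostly by name and is not a measured set of growth arrest transcripts. Of these 8 genes 4 fell and 4 rose, where 33.3% of all tested genes fell and 33.8% rose. Gas6, a ligand of TAM receptor kinases, fell from 517.5 ± 25.5 CPM in control to 227.7 ± 5.08 CPM (SD, n = 2), Gas2l3, a cytoskeletal linker of dividing cells, fell by 1.42 on the log2 scale, the non-coding RNA gene Gas5 by 0.84 and Gas2 by 0.70. Those that rose were the stress-induced transcription factor gene Ddit3 (0.50), Gas2l1 (0.41), Gas7 (0.39) and Gas8 (0.19). The calls of Gas7 and Gas8 were lost with library totals (adjusted p = 0.078 and 0.473), in DESeq2 (adjusted p = 0.0912 and 0.0663) and without control replicate 2 (adjusted p = 0.0809 and 0.0533) or c-FOS replicate 2 (adjusted p = 0.0515 and 0.178), and that of Gas8 also with upper-quartile factors (adjusted p = 0.0882), in edgeR unless named otherwise.

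CDON and BOC also act outside Hedgehog signalling, in cadherin complexes and in muscle differentiation. The myogenic factor genes Myod1, Myf5 and Myog had 0 counts in all 4 libraries. Of 19 tested partners, 11 rose, 4 fell and 4 missed the threshold, where 33.8% of all tested genes rose and 33.3% fell. The median log2 fold change of the partners was 0.17, against -0.01 over all tested genes, -0.40 for Cdon and -0.67 for Boc. The highest were the netrin genes Ntn3 (2.32, and 3.17 without control replicate 2; at most 1.29 CPM in any library) and Ntn1 (1.08) and the muscle cadherin gene Cdh15 (1.29). The call of Cdh15 was lost under DESeq2 (adjusted p = 0.175) and when control replicate 1 (adjusted p = 0.0528) or c-FOS replicate 1 (adjusted p = 0.183) was left out. Both Ntn3 and Cdh15 passed the count filter only because of their c-FOS libraries. The lowest were Rgma, a repulsive guidance molecule gene (-1.37), the netrin receptor gene Unc5b (-0.999) and the transcription factor gene Tcf3 (-0.24).

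Markers of other cell types were counted beside these results. The tallies are to be read against all tested genes, of which 33.8% rose and 33.3% fell. Of 10 fibroblast markers 6 were tested, of which 4 rose and 1 fell (2 fell with no filter and without control replicate 1), with a summed level of 14.7 to 16.1 CPM in control and 134.6 to 136.6 CPM in c-FOS libraries, mostly S100a4. Col1a2 rose from 0.471 and 0.607 CPM in control to 2.98 and 3.91 CPM, Pdgfra from 4.24 and 4.23 to 11.3 and 11.9 CPM, and Pdgfrb from 0 counts in both control libraries to 2.71 and 2.65 CPM, while Fbln1 fell by 2.72 on the log2 scale. Pdgfrb passed the count filter through the c-FOS libraries alone, so its rise in this tally was fixed once it was tested. Col1a1 (0.83) did not pass. Of the 4 markers too low to test, Dcn was at most at 0.591 CPM, Lum and Col3a1 at most at 0.0323 CPM, and Thy1 at 0 in all 4 libraries. Of 11 macrophage and leukocyte markers 3 were tested and 3 rose, Csf1r from 0.387 and 0.224 to 18.4 and 18.5 CPM, with log2 fold changes of 0.68 for Cd14 and 0.37 for Cd68. Csf1r, too, passed the count filter only because of its c-FOS libraries. Ptprc was at most at 0.0899 CPM, and the sum was 17.0 to 18.9 CPM in control and 41.5 to 45.0 CPM in c-FOS libraries. Of 7 endothelial markers 4 were tested, of which 3 rose, with log2 fold changes of 0.31 for Pecam1, 1.85 for Flt1 and 1.35 for Tek, and Egfl7 fell (-0.66). Flt1 was at 29.2 and 32.6 CPM in control and 113.1 and 109.5 CPM in c-FOS libraries, and Pecam1 at 83.1 and 79.5 against 101.0 and 100.3 CPM. Kdr was at 0, Cdh5 at most at 0.0359 CPM and Vwf at most at 0.303 CPM, with sums over the 7 of 117.1 to 117.5 CPM in control and 214.2 to 219 CPM in c-FOS libraries. Neither of 2 tested melanocyte markers passed, except that both passed as lower with library totals. Their part in the co-receptor values was not tested.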
